A study of Homo sapiens with 56 samples.

Results

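Fulvestrant added together with estradiol was set against estradiol alone in PEO4, an established line of high-grade serous ovarian cancer cells. The comparison used 4 arrays of PEO4 cells given ICI+E2 and 4 arrays of PEO4 cells given E2, 8 of the 56 expression arrays of the study, chosen by their titles. ICI is fulvestrant at 1 µM and E2 is estradiol at 1 nM, and every treatment lasted 3 h. The level on 4 PEO4 vehicle arrays (ethanol) served as the point of full reversal. Groups of 4 arrays each of PEO4 cells given ICI alone, or 4OHT+E2 (4-hydroxytamoxifen at 1 µM with the same estradiol), and of PEO1 cells given ICI+E2, E2 or vehicle, were set beside it. PEO1 is the other ovarian cancer line of the study. All of these cells, controls included, had first spent 3 days in medium without phenol red and with charcoal-stripped serum, which removes most steroid hormone. The labels do not say whether the arrays of a group came from separate cultures, so p-values measure the spread between these arrays, which may be technical. Each group is a single line at a single dose and time.

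Estradiol acts through the estrogen receptors, ligand-activated transcription factors that bind DNA near target genes and recruit coregulators. Fulvestrant competes with estradiol for the receptor, leaves it unable to activate transcription and promotes its degradation. 4-Hydroxytamoxifen also competes for the receptor but keeps agonist activity at some genes and in some tissues. With both ligands present, the distance of a transcript from its vehicle level holds what is left of the hormone response. It also holds any effect of the antagonist itself.

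The array values are log2 expression values made by robust multi-array averaging, in which a difference of 1 is a doubling. They hold no background calls, and levels of different genes are not comparable. Of 12 epithelial marker genes, 11 lay above the median gene of PEO4, and of 7 markers of Muellerian or serous tissue 5 did, whereas 0 of 9 neural, 0 of 10 stromal and 0 of 7 leukocyte markers and 2 of 12 hepatocyte markers did. Array medians lay between 7.84 and 7.91 in PEO4. The 3′ minus 5′ signal of the ACTB control probe sets, a sign of RNA degradation when large, was 0.48 to 0.79 with ICI+E2, 0.68 to 1.02 with E2 and 0.24 to 0.57 with vehicle. Every E2 array thus lay above every vehicle array, and ICI+E2 overlapped both. The part of this measure in the differences among these groups was not tested. The ACTB signal was 3.41 on replicate 1 of ICI alone and 2.28 on replicate 4 of the untreated 0 h cells. These 2 arrays stand apart and enter the results only through the shared variance or the comparisons with ICI alone.

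ICI+E2 moved the estradiol-responsive genes of PEO4 most of the way back to vehicle. In limma (Benjamini-Hochberg adjusted p under 0.05 over 11963 genes), 249 genes differed between ICI+E2 and E2, 2.08% of those tested. Of them 176 were lower with ICI+E2 (1.47%) and 73 were higher (0.610%). The genes with the largest decreases were GREB1, RASGRP1, OLFML3, DEPTOR and KAZN, and those with the largest increases were DKK1, GOLIM4, RGCC, EFNB2 and EZR. Of these 10, GOLIM4 lost its call when any of 5 single arrays was left out. The count was 407 without the 2 arrays of poorer RNA, 164 without ICI+E2 replicate 1 and 155 without E2 replicate 2.

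The estradiol response that was to be reversed comprised 254 genes called between E2 and vehicle (2.12% of those tested), 199 higher with E2 (1.66%) and 55 lower (0.460%). Of these 254 genes, 165 (65.0%) were called in the opposite direction between ICI+E2 and E2: 134 of the 199 that estradiol raised and 31 of the 55 that it lowered. That count was 106 without E2 replicate 2. The 2 comparisons share the E2 arrays, so a chance deviation of an E2 array enlarges both. ICI+E2 and vehicle, which share no array, differed at 1 gene, RASGRP1 (0.00836% of those tested), with 916 genes at an unadjusted p under 0.05. Without replicate 1 of ICI alone, the array of poorest RNA and in neither group, 10 genes were called. The count was 4 without E2 replicate 2 or vehicle replicate 1, 2 without replicate 1, 3 or 4 of 4OHT+E2, and 0 without ICI+E2 replicate 2 or 4 or vehicle replicate 2 or 3.

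For each gene the percent of the estradiol change reversed was computed as the difference between E2 and ICI+E2 over the difference between E2 and vehicle. On this scale 0 is the E2 level, 100 the vehicle level, and values over 100 lie past vehicle. Its median over the 254 genes was 80.8, with quartiles of 67.1 and 97.5. The median was 82.6, 85.4, 83.2 and 75.8 when each ICI+E2 array was used on its own, 4.2 SD over 4 arrays. It was 81.1 over the genes estradiol raised and 78.4 over those it lowered. Counted by gene, 37 lay under 50, 159 between 50 and 100 and 58 over 100. The 95% Fieller interval, which carries the error of both differences, held 100 at 184 genes, lay wholly below 100 at 65 and wholly above 100 at 5, and lay wholly above 0 at 226. These intervals are per gene and carry no adjustment for their number. Among the 49 genes that estradiol moved by at least 0.5 on the log2 scale, 45 were called back and the median was 87.3, and among the 205 genes of smaller change 120 were called back and the median was 78.4. The E2 arrays that set this size also enter the call and the percent, and a larger change is easier to call back. These values therefore cannot show whether larger responses were blocked more fully.

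**Figure D1:**
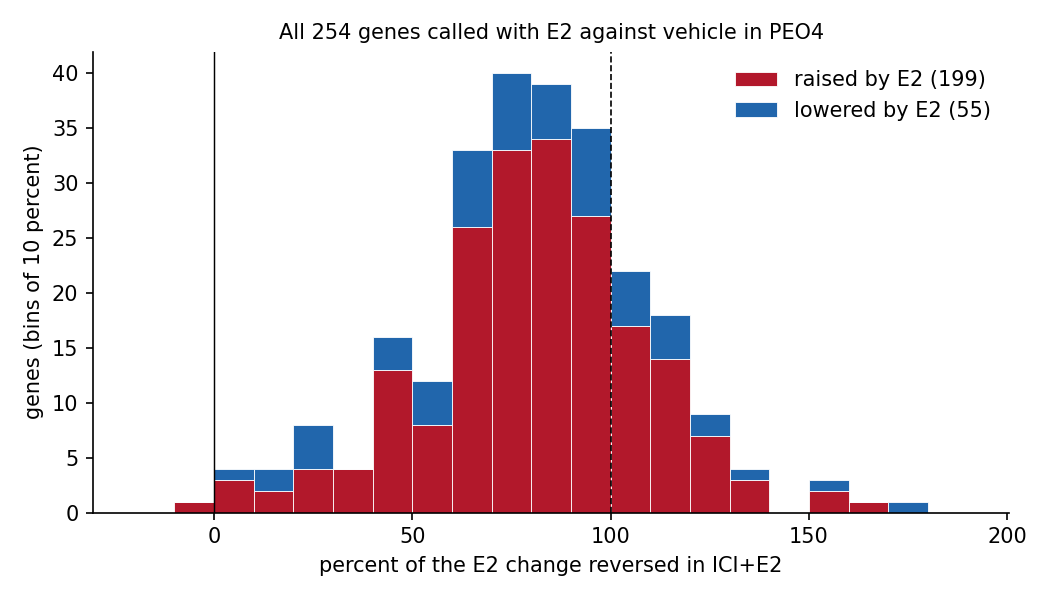
Histogram of the percent of the estradiol change reversed in PEO4 ICI+E2 (x axis, 0 the E2 level and 100 the vehicle level, bins of 10) for the 254 genes called between E2 and vehicle, with 199 genes raised by estradiol in red and 55 lowered in blue stacked on the y axis. Most genes lie between 50 and 100, 58 lie past the dashed vehicle line, and 1 lies below 0.

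Among the genes that estradiol raised, RASGRP1 changed most. This gene encodes a guanine nucleotide exchange factor that activates Ras. Its level was 8.58, 8.67, 8.59 and 8.75 on the ICI+E2 arrays, 10.11, 10.09, 9.86 and 10.09 on the E2 arrays and 8.06, 8.02, 8.11 and 8.23 on the vehicle arrays. The 3 groups did not overlap, and every ICI+E2 array lay between E2 and vehicle. The difference between ICI+E2 and E2 was -1.39 ± 0.085 (log2, SE, limma adjusted p = 6.25e-12), which is 71.9% of the estradiol change with an interval of 63.9 to 80.2. ICI+E2 remained 0.54 ± 0.085 above vehicle (adjusted p = 0.0105), the residual named above. That call was lost without ICI+E2 replicate 2 (adjusted p = 0.0551), ICI+E2 replicate 4 (0.11), vehicle replicate 2 (0.0848) or vehicle replicate 3 (0.0519). On the ICI alone arrays RASGRP1 lay at 8.92, 8.54, 8.49 and 8.52, around the ICI+E2 level, and ICI alone was 0.52 ± 0.085 above vehicle (adjusted p = 0.00882). With 8.92 on the array of poorest RNA, the other 3 ICI alone arrays still lay above every vehicle array.

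GREB1, a gene named for its induction by estrogen in breast cancer cells, had levels of 8.55, 8.80, 8.83 and 8.71 with ICI+E2, 10.46, 9.94, 10.11 and 10.30 with E2 and 8.64, 8.40, 8.34 and 8.65 with vehicle. All ICI+E2 arrays were below all E2 arrays and overlapped the vehicle arrays. GREB1 differed from E2 by -1.48 ± 0.127 (adjusted p = 1.05e-08), which was 87.3% of the estradiol change (73.5 to 103.0). Other GREB1 probe sets gave smaller decreases, of -0.16 and -0.37. KAZN, the gene of kazrin, a protein found at desmosomes, stood at 10.95, 10.98, 11.02 and 11.07 with ICI+E2, 12.09, 12.15, 12.04 and 12.09 with E2 and 10.79, 10.69, 10.70 and 10.80 with vehicle. As with RASGRP1, its ICI+E2 arrays lay between the other groups without overlap, and 80.9% of the change was reversed (72.6 to 89.7). The KAZN residual of 0.26 ± 0.061 had an adjusted p of 0.244, and of 0.00737 without the 2 arrays of poorer RNA. Another KAZN probe set gave 0.52 for E2 minus vehicle and -0.54 for ICI+E2 minus E2, both called. Its residual was -0.018 and was not called (limma adjusted p = 0.986 over all probe sets). The remaining KAZN probe set, at 0.27 and -0.21, was called in neither. The incomplete reversal of KAZN therefore rests on the probe set used.

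**Figure D2:**
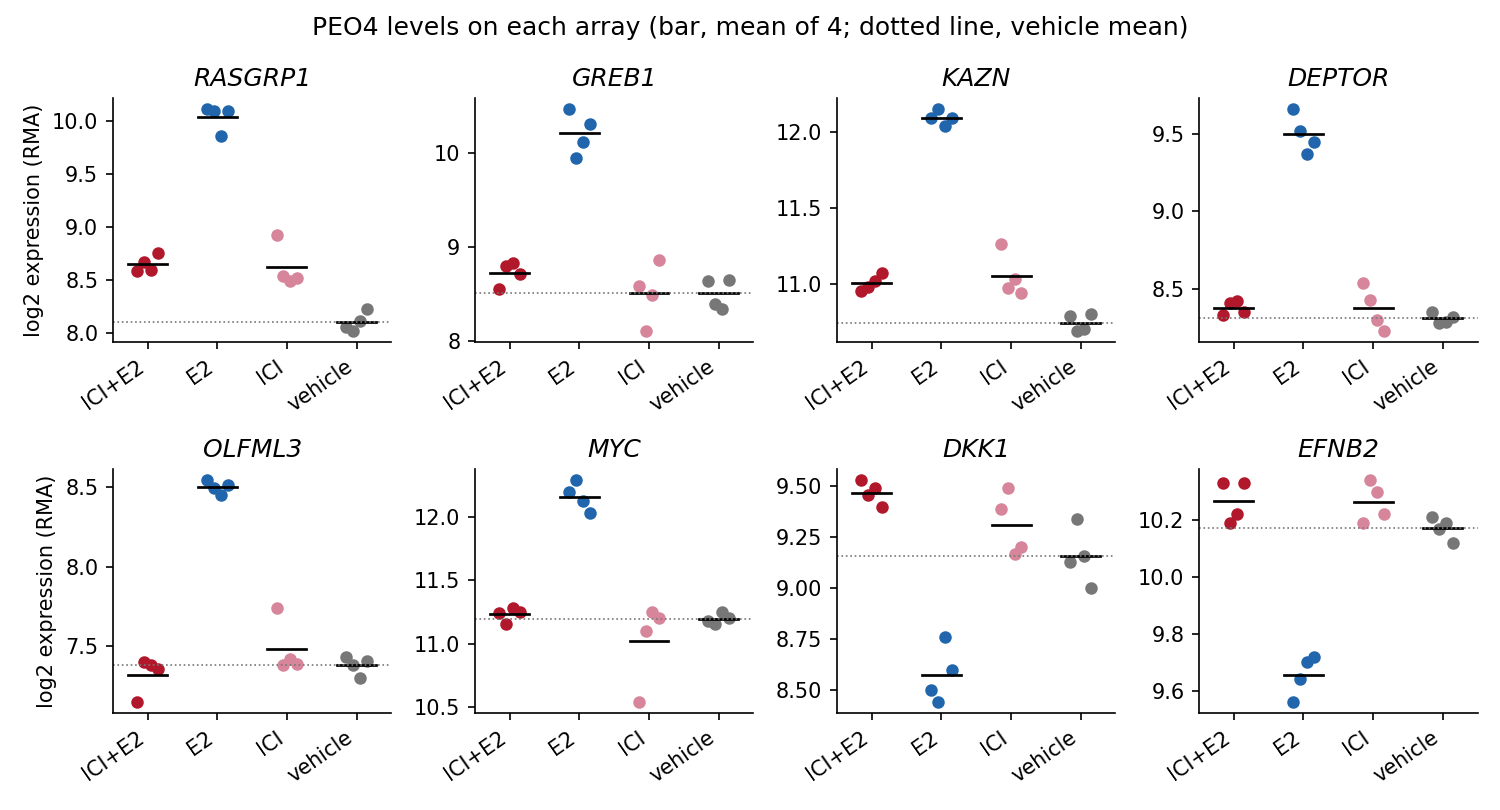
Log2 expression on each PEO4 array (y axis, RMA) for 6 genes raised and 2 genes lowered by estradiol, with ICI+E2, E2, ICI and vehicle from left to right, 4 arrays each. Points are arrays, bars are group means and the dotted line is the vehicle mean. ICI+E2 lies near the vehicle line for DEPTOR, OLFML3 and MYC, above it for RASGRP1 and KAZN, and past it for DKK1.

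Several other strong responses returned to vehicle within their error. DEPTOR, an inhibitory subunit of the mTOR complexes, read 8.33, 8.41, 8.42 and 8.35 with ICI+E2, against 9.66, 9.52, 9.37 and 9.45 with E2 and 8.35, 8.28, 8.29 and 8.32 with vehicle. OLFML3, a secreted olfactomedin-like protein, read 7.15, 7.40, 7.38 and 7.36 with ICI+E2, against 8.54, 8.49, 8.45 and 8.51 with E2 and 7.43, 7.38, 7.30 and 7.41 with vehicle. Both were separated from E2 and overlapped vehicle, with 94.4% (83.9 to 106.1) and 105.0% (92.5 to 119.4) of the change reversed. MYC, the growth-promoting transcription factor, lay at 11.24, 11.16, 11.28 and 11.25 with ICI+E2, 12.20, 12.29, 12.13 and 12.03 with E2 and 11.18, 11.16, 11.25 and 11.20 with vehicle. MYC differed from E2 by -0.93 ± 0.098 (adjusted p = 3.82e-07), 96.6% of the estradiol change (77.6 to 119.8). IL12A, which encodes a subunit of interleukin 12, was reversed by 101.1%, the phospholipase C-like gene PLCL2 by 104.9%, the erythroid regulator RHEX by 98.8% and KHDC1L by 104.7%. The intervals of all 4 held 100.

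KLF4, a zinc-finger transcription factor, was reversed a little less fully on the probe set used. It read 10.23, 10.30, 10.12 and 10.29 with ICI+E2, 11.15, 11.04, 11.05 and 11.07 with E2 and 10.21, 10.04, 10.06 and 10.13 with vehicle. ICI+E2 overlapped vehicle on single arrays, yet the interval of its 87.1% (77.1 to 98.0) ended below 100. The other KLF4 probe set gave 0.68 for E2 minus vehicle, not called, and -0.72 for ICI+E2 minus E2, with a residual of -0.038. OTUB2, a deubiquitinase, reached 8.60, 8.47, 8.48 and 8.60 with ICI+E2, 9.38, 9.49, 9.21 and 9.23 with E2 and 8.46, 8.29, 8.25 and 8.27 with vehicle. Here ICI+E2 lay above every vehicle array, at 77.9% reversed (61.2 to 96.6). BCL11A, a transcriptional repressor, was at 67.8% (47.0 to 90.9). Of the remaining genes among the 20 largest increases, those for the calcium channel CACNA1I, the thrombomodulin gene THBD, the neurturin receptor GFRA2, the phosphatase DUSP2, the carbonic anhydrase CA12 and the transcription factor SOX9 were reversed by 80.7% to 93.9%, all with intervals that held 100. The zinc-finger gene ZNF124 had the lowest value of the 20 at 48.7% (-0.9 to 97.3), and it was not called between ICI+E2 and E2 (-0.34 ± 0.167, adjusted p = 0.425). Its vehicle arrays spread over 7.53, 7.14, 6.98 and 7.94.

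**Figure D3:**
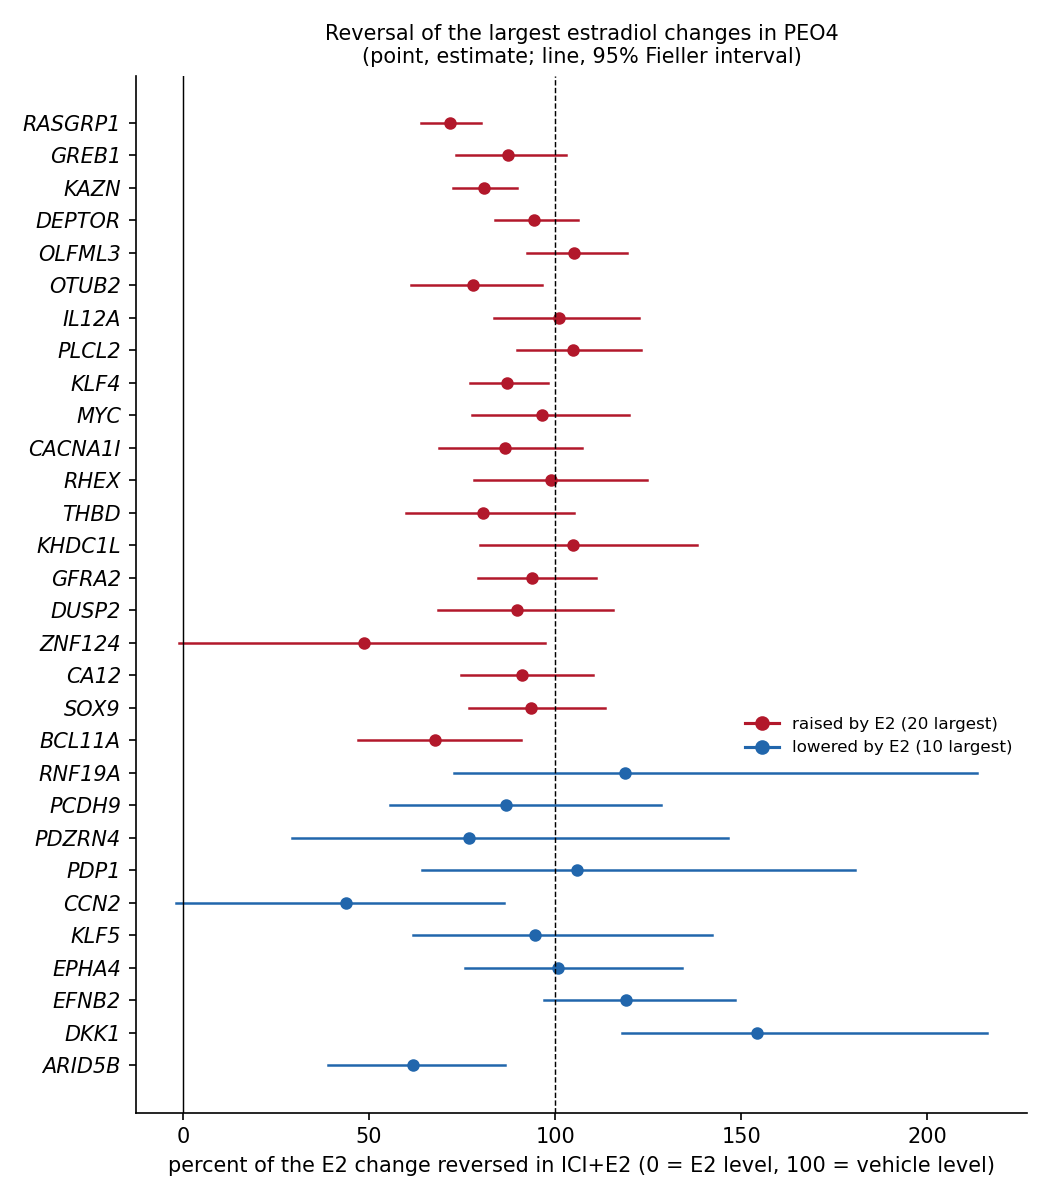
Percent of the estradiol change reversed in PEO4 ICI+E2 (x axis, 0 the E2 level, dashed line at 100 the vehicle level) for the 20 largest increases (red) and the 10 largest decreases (blue) called with estradiol, with the largest increase at the top and the largest decrease at the bottom. Points are estimates and lines are 95% Fieller intervals. RASGRP1, KAZN, OTUB2, KLF4, ZNF124, BCL11A, CCN2 and ARID5B end below 100, and DKK1 starts above it.

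Genes that estradiol lowered came back up. EFNB2, a transmembrane ephrin ligand of Eph receptors, had 10.33, 10.19, 10.22 and 10.33 with ICI+E2, 9.56, 9.64, 9.70 and 9.72 with E2 and 10.21, 10.17, 10.19 and 10.12 with vehicle. EPHA4, an Eph receptor tyrosine kinase, had 7.57, 7.76, 7.73 and 7.77 with ICI+E2, 7.24, 7.07, 7.27 and 7.23 with E2 and 7.75, 7.70, 7.70 and 7.66 with vehicle. Both were above all E2 arrays and overlapped vehicle. EFNB2 rose by 0.61 ± 0.056 (adjusted p = 3.07e-08), 119.0% of its change (97.0 to 148.3), and EPHA4 rose by 0.51 ± 0.068 (adjusted p = 2.32e-05), 100.7% (75.7 to 134.2).

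DKK1, which encodes a secreted inhibitor of Wnt signalling, lay past vehicle on each ICI+E2 array. It read 9.53, 9.46, 9.49 and 9.40 with ICI+E2, 8.50, 8.44, 8.76 and 8.60 with E2 and 9.13, 9.34, 9.16 and 9.00 with vehicle. Every ICI+E2 array was above every vehicle array, and every E2 array was below them. The rise of 0.90 ± 0.093 over E2 (adjusted p = 3.22e-07) was 154.3% of the estradiol change (118.0 to 216.0), while the distance of 0.32 ± 0.093 from vehicle had an adjusted p of 0.34. DKK1 was at 9.39, 9.49, 9.17 and 9.20 with ICI alone, overlapping ICI+E2. KLF5, PDP1, RNF19A and PCDH9, for a Krüppel-like factor, a pyruvate dehydrogenase phosphatase, a ubiquitin ligase and a protocadherin, were reversed by 86.7% to 118.7% with intervals that held 100. PDZRN4, the remaining gene of the 10 largest decreases, was at 77.0% (29.3 to 146.4) and was not called between ICI+E2 and E2 (0.36 ± 0.123, adjusted p = 0.162).

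ARID5B, a DNA-binding chromatin regulator, had the largest decrease with estradiol and was only partly restored. Its levels were 8.36, 8.53, 8.62 and 8.51 with ICI+E2, 8.04, 8.23, 8.17 and 8.13 with E2 and 8.74, 8.76, 8.75 and 8.66 with vehicle. The 3 groups were apart, and 61.9% of the decrease was reversed (38.9 to 86.6). The matricellular gene CCN2 had 11.69, 11.76, 11.72 and 11.62 with ICI+E2, 11.57, 11.53, 11.47 and 11.35 with E2 and 11.96, 11.99, 11.99 and 11.94 with vehicle. ICI+E2 lay between the others on every array, but its difference from E2 missed the threshold (0.21 ± 0.108, adjusted p = 0.439) at 43.9% reversed (-1.8 to 86.4).

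ST7L, HIVEP1, RALA, SLC35G2 and NOX4 had the lowest values, from -1.9% to 8.9%, on estradiol changes of 0.20 to 0.33 in size. HIVEP1, a zinc-finger transcription factor, had 9.15, 9.24, 9.11 and 9.26 with ICI+E2, 9.23, 9.18, 9.16 and 9.19 with E2 and 8.92, 8.71, 8.93 and 9.09 with vehicle. ICI+E2 and E2 overlapped throughout, and both lay above vehicle. The interval of its 1.1% ran from -75.2 to 44.6, and the ICI+E2 level was 0.27 ± 0.068 above vehicle (adjusted p = 0.244). The highest values belonged to the protocadherin PCDH7 (176.2%), the receptor tyrosine kinase feedback inhibitor SPRY1 (169.0%), the coagulation factor subunit F13A1 (154.8%), DKK1 and the calcium-binding protein CASQ2 (153.1%). They are the 5 genes whose interval lay above 100, and none was called between ICI+E2 and vehicle. SPRY1 showed it on single arrays, at 7.09, 7.32, 7.33 and 7.21 with ICI+E2, 7.74, 7.81, 7.73 and 7.81 with E2 and 7.46, 7.42, 7.47 and 7.48 with vehicle, with all ICI+E2 arrays below vehicle.

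Because the E2 arrays that chose the 254 genes also enter the percent, reversal was also measured over genes called with estradiol in PEO1. That choice uses no PEO4 array. PEO1 E2 and PEO1 vehicle differed at 250 genes (2.09%), 187 higher (1.56%) and 63 lower (0.527%). Over the 187 genes, the PEO4 medians were -0.208 for ICI+E2 minus E2, 0.239 for E2 minus vehicle and 0.038 for ICI+E2 minus vehicle. In PEO4, 174 of the 187 were lower with ICI+E2 than with E2, 77 of them called, and 1 was called higher. Over the 63 genes lowered in PEO1, the medians were 0.114, -0.150 and -0.034 in the same order, with 47 above 0 and 13 called higher. Over all genes tested they were -0.009, 0.002 and -0.006. Of all 11963 genes, 6475 were lower with ICI+E2 than with E2 and 5431 were higher, with 1.47% called lower and 0.610% called higher. The ratio of the medians, with signs aligned to the PEO1 change, put reversal at 86.3% over the 250 genes. By ICI+E2 array this ratio was 91.5, 94.2, 85.2 and 78.3% (7.1 SD, n = 4). This ratio is a different measure from the median of percents per gene over the 254 genes.

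**Figure D4:**
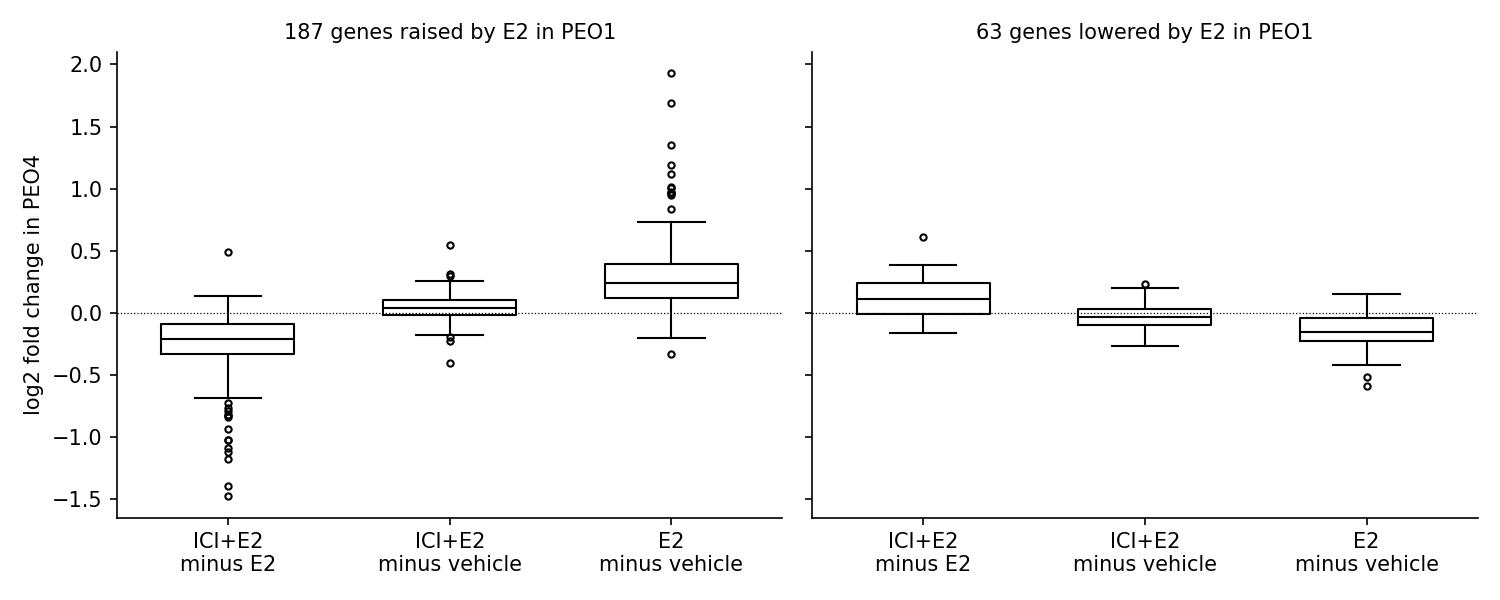
Log2 differences in PEO4 (y axis) for the 187 genes raised (left panel) and the 63 genes lowered (right panel) by estradiol in PEO1, as box plots over genes with medians, quartiles, whiskers to 1.5 times the quartile range and outlying genes as circles. ICI+E2 minus vehicle is centred near 0 in both panels, with medians of 0.038 and -0.034, while ICI+E2 minus E2 and E2 minus vehicle lie on opposite sides of 0.

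By known role, the 34 measured genes from a list of genes raised by estradiol in breast cancer cells had a median of -0.144 for ICI+E2 minus E2, against -0.009 over all genes tested. Of the 34, 11 fell with ICI+E2 and 0 rose, against 1.47% lower and 0.610% higher over all genes. The same 34 had 10 genes called higher with E2, against 1.66% over all genes. Besides GREB1, CA12, MYC and DEPTOR they included the secreted glycoprotein STC2 (-0.48 ± 0.081, 105.1%), the lysosomal protease CTSD (-0.32 ± 0.063, 111.6%), the scaffold protein PDZK1 (-0.33 ± 0.049, 130.2%) and the amino acid transporter SLC7A5 (-0.25 ± 0.056, 80.2%). MYBL1, a MYB-family transcription factor, was at 52.0% (-0.31 ± 0.059, adjusted p = 0.00204). The progesterone receptor gene PGR, a standard estrogen target in breast cells, read 3.78 to 3.81 with ICI+E2, 3.64 to 3.94 with E2 and 3.73 to 4.07 with vehicle, and all 3 groups overlapped. Signals this low were rare in PEO4: the leukocyte marker LYZ, at a mean of 3.99, lay at percentile 2.8 of all genes. Without background calls, an overlap at this level cannot show whether PGR responds to estradiol. ESR1, which encodes estrogen receptor alpha, was 11.54 to 11.65 with ICI+E2, 11.69 to 11.77 with E2 and 11.57 to 11.71 with vehicle. Its difference between ICI+E2 and E2 of -0.12 ± 0.056 was not called (adjusted p = 0.387), and receptor protein was not measured.

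Of 14 genes that estradiol represses in breast cancer cells, 2 rose with ICI+E2, 1 fell, and the median was 0.079. Over all genes 0.610% rose and 1.47% fell. TXNIP, an inhibitor of thioredoxin, rose by 0.27 ± 0.040 (adjusted p = 0.000112, 113.8%) and the cyclin CCNG2 by 0.28 ± 0.071 (0.0279, 92.3%). The member that fell was KLF4, which estradiol raised in these cells. Among 16 measured ribosome biogenesis and MYC target genes 6 were called higher with E2, against 1.66% over all genes. With ICI+E2 3 fell, against 1.47% over all genes, and the median was -0.125. Those 3 were RRS1 and NOP16, which act in ribosome assembly, and the RNA polymerase subunit POLR1C, at 73.1%, 75.9% and 97.3%. WDR12, POLR3G and NIP7 were raised by E2 and had 65.1% to 71.0% reversed without a call.

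Of 17 Eph receptor and ephrin genes, 3 rose with ICI+E2 (EFNB2, EPHA4 and EPHB3) and these were the 3 that E2 lowered, against 0.610% higher with ICI+E2 and 0.460% lower with E2 over all genes. EPHB3, an Eph receptor, was 100.8% reversed (0.39 ± 0.061). In a list of 16 Wnt genes 3 rose and 1 fell, beside the same 0.610% higher and 1.47% lower over all genes. The receptor gene FZD5 fell by 0.28 ± 0.044 (67.3%), and FZD1, FZD7 and DKK1 rose. The calls of FZD1 and of FZD7 were each lost on leaving out any of 5 single arrays. In a list of 13 MAPK feedback inhibitors DUSP2 and SPRY1 fell, against 1.47% over all genes. The phosphatase genes DUSP4 and DUSP5 rose, against 0.610% over all genes, though both lost the call when single arrays were left out. IGFBP3, which binds insulin-like growth factors outside the cell, read 10.02, 10.10, 9.97 and 10.07 with ICI+E2, 9.62, 9.86, 9.56 and 9.58 with E2 and 9.97, 9.87, 9.99 and 9.98 with vehicle. It was separated from E2 and overlapped vehicle (0.39 ± 0.069, adjusted p = 0.00119, 130.9%).

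Lists of steroid receptors (8 measured), estrogen receptor coregulators (12), cholesterol synthesis (11), the unfolded protein response (13), interferon response (13), NF-kB and cytokines (18) and G1/S (21) and mitotic (20) cell cycle genes had 0 members called between ICI+E2 and E2. Unadjusted, 1436 of all 11963 genes had p under 0.05. The mitotic genes had a median of 0.098 for ICI+E2 minus E2 and of -0.094 for E2 minus vehicle. Both medians use the same E2 arrays with opposite sign, so a deviation of those arrays alone would move them apart in this way. The epithelial, hepatocyte, neural, stromal and leukocyte marker lists also had 0 members called. Of 7 Muellerian markers 1 fell, SOX17, by 0.35 ± 0.076 (116.0%). The remaining lists, read beside 1.47% lower and 0.610% higher over all genes tested, had 3 of 25 immediate early genes lower, 1 of 13 Krüppel-like factors higher and 2 lower, 1 of 15 insulin-like growth factor genes in each direction, 1 of 12 Ras-family exchange factors in each direction, 1 of 8 aryl hydrocarbon receptor targets in each direction, and 1 of 14 clock, 1 of 9 YAP target and 1 of 8 mTOR regulator genes lower. None of 7 cytokine signalling inhibitors and 10 p53 targets was called.

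A further 42 genes in each direction were called between ICI+E2 and E2 but not between E2 and vehicle. Nearly all had an estradiol change of opposite sign, 40 of the 42 higher and 41 of the 42 lower. Both differences use the same E2 arrays, with opposite sign. Choosing genes by ICI+E2 minus E2 therefore favours an opposite E2 minus vehicle value even without an estradiol response. For that reason these counts and the medians that follow cannot show whether estradiol moved these genes. Medians over the higher ones were 0.308 for ICI+E2 minus E2, -0.149 for E2 minus vehicle and 0.158 for ICI+E2 minus vehicle, and over the lower ones -0.292, 0.164 and -0.124. RGCC, a regulator of cell cycle progression, had 5.70, 6.11, 5.56 and 5.78 with ICI+E2, 5.06, 5.52, 5.25 and 4.85 with E2 and 5.56, 5.24, 5.42 and 5.36 with vehicle, so that ICI+E2 lay above every E2 array and overlapped vehicle. EGR1, an immediate early transcription factor, had 8.67, 8.86, 9.08 and 8.94 with ICI+E2, 9.49, 9.44, 9.51 and 9.57 with E2 and 9.20, 9.25, 9.32 and 9.37 with vehicle. For EGR1 the ICI+E2 arrays were below both other groups, at -0.62 ± 0.103 against E2 (adjusted p = 0.000458) and -0.40 ± 0.103 against vehicle (0.255). GEM, a small GTPase of the RGK family, had 8.95, 8.71, 8.73 and 8.95 with ICI+E2, 8.27, 8.45, 8.41 and 8.42 with E2 and 8.34, 8.47, 8.39 and 8.31 with vehicle. The GEM level with E2 was within 0.01 ± 0.084 of vehicle, and it rose with ICI+E2 by 0.45 ± 0.084 over E2 (adjusted p = 0.00203) and stood 0.46 ± 0.084 over vehicle (0.0608). The other genes with the smallest estradiol changes among the calls were GOLGA2, MFHAS1, BCAR3 and ALDH1A3, which rose by 0.20 to 0.33, and ZSCAN31, CFHR4, DRC4, PLCG2 and ASCL2, which fell by 0.19 to 0.36. Of these 9 only ALDH1A3, a retinaldehyde dehydrogenase, kept its call under the 8 alternatives and on leaving out each of 20 arrays, those of the 5 PEO4 groups used here.

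The effect of estradiol in the presence of fulvestrant was read against ICI alone. ICI+E2 and ICI alone differed at 0 of 11963 genes (0%) in limma, with 1614 at an unadjusted p under 0.05, 0 without the 2 arrays of poorer RNA and 459 without ICI replicate 4. The direct test, the estradiol effect with fulvestrant minus the effect without, was called at 135 genes (1.13%), 110 lower (0.920%) and 25 higher (0.209%). The count was 139 without the 2 arrays of poorer RNA. Leaving out ICI+E2 replicate 1 gave 87 genes, E2 replicate 2 gave 88, vehicle replicate 2 gave 89 and ICI replicate 4 gave 322. The 254 estradiol-responsive genes were chosen by E2 minus vehicle, which this test subtracts, and that choice itself favours a smaller effect with fulvestrant. Of them, 116 had an estradiol effect that was smaller with fulvestrant by this test. The differences were -1.91 ± 0.121 for RASGRP1 (adjusted p = 3.3e-11), -1.48 ± 0.180 for GREB1 (1.11e-05), -1.40 ± 0.086 for KAZN (3.3e-11) and 0.74 ± 0.132 for DKK1 (0.00214). Against ICI alone, RASGRP1 differed by 0.03 ± 0.085 and KAZN by -0.05 ± 0.061 with ICI+E2, neither called. KAZN, like RASGRP1, was higher with ICI alone than with vehicle (0.31 ± 0.061, adjusted p = 0.0335), where 19 genes were called in all (0.159%), 847 without ICI replicate 4 and 1 without vehicle replicate 2.

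4-Hydroxytamoxifen at the same dose with the same estradiol gave a less complete return. Over the 254 genes the median percent reversed was 80.8 with ICI+E2 and 46.4 with 4OHT+E2, 2 values that share the E2 and vehicle arrays. ICI+E2 and 4OHT+E2 themselves differed at 532 genes (4.45%), 172 higher (1.44%) and 360 lower (3.01%), and at 343 without ICI+E2 replicate 3 and 1031 without the 2 arrays of poorer RNA. Of the 254, ICI+E2 was called further than 4OHT+E2 against the direction of the estradiol change at 65, and 4OHT+E2 further at 12. These counts go by sign and take no account of levels past vehicle, so they do not measure nearness to vehicle. DKK1, lowered by estradiol, read 9.94, 10.16, 10.27 and 9.89 with 4OHT+E2, above every ICI+E2 and vehicle array. SOX9 had 9.07, 9.09, 9.11 and 9.19 with ICI+E2 and 9.42, 9.58, 9.84 and 9.68 with 4OHT+E2, and MYC had 11.52 to 11.84 with 4OHT+E2, with no overlap in either case and called differences of -0.51 (adjusted p = 2.24e-06) for SOX9 and -0.50 (0.00173) for MYC. GREB1, in contrast, read 8.55, 8.80, 8.83 and 8.71 with ICI+E2 and 8.42, 8.41, 8.43 and 8.26 with 4OHT+E2, a difference of 0.34 that was not called (adjusted p = 0.137).

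The genes lowest with ICI+E2 relative to 4OHT+E2 were FOSB (-1.95 ± 0.138), NR4A3 (-1.92 ± 0.154), RGCC (-1.88 ± 0.114), DUSP4 (-1.68 ± 0.107) and IER3 (-1.65 ± 0.104). FOSB, NR4A3 and IER3 are immediate early genes, and DUSP4 is a phosphatase of MAP kinases. FOSB read 7.54, 7.68, 7.47 and 7.47 with ICI+E2, 9.46, 9.06, 10.02 and 9.41 with 4OHT+E2 and 7.03, 7.18, 7.14 and 7.11 with E2. The ICI+E2 arrays lay just above E2, and the 4OHT+E2 arrays lay far above both. In all, 18 of 25 immediate early genes, 9 of 13 MAPK feedback genes and 11 of 18 NF-kB and cytokine genes were lower with ICI+E2 than with 4OHT+E2, and 0 of any of these lists were higher. Over all genes 3.01% were lower and 1.44% higher. ACTB 3′ minus 5′ reached 1.74 on the 4OHT+E2 arrays, and its part in these differences was not tested. The genes highest with ICI+E2 relative to 4OHT+E2 were the thrombin receptor gene F2R (0.78 ± 0.082), TMEM100 (0.73 ± 0.085), TSPAN12 (0.62 ± 0.098), ZNF124 (0.60 ± 0.167) and DAAM1 (0.57 ± 0.079).

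In PEO1 the same treatments gave 299 genes called between ICI+E2 and E2 (2.50%) and 5 between ICI+E2 and vehicle (0.0418%). The ICI+E2 minus E2 difference was tested between lines and differed at 50 genes (0.418%), 26 with a higher value in PEO4 (0.217%) and 24 with a lower one (0.201%). This difference also depends on how far estradiol moved a gene in each line. The test therefore does not compare the share of the estradiol change reversed. The count was 84 without the 2 arrays of poorer RNA. Each line supplies its own difference, since the arrays of the lines stand apart: on the ICI+E2 and E2 arrays the medians were 7.84 to 7.91 in PEO4 and 7.43 to 7.47 in PEO1. The ACTB 3′ minus 5′ signal was 0.48 to 0.79 with ICI+E2 and 0.68 to 1.02 with E2 in PEO4, and -0.25 to 0.06 with ICI+E2 and -0.21 to 0.04 with E2 in PEO1. The part of either measure in the differences between lines was not tested. RASGRP1 fell by 1.39 ± 0.085 in PEO4 and by 0.41 ± 0.065 in PEO1 (difference -0.98 ± 0.109, adjusted p = 3.44e-08). GREB1 went the other way, with -1.48 ± 0.127 in PEO4 and -2.30 ± 0.093 in PEO1 (0.82 ± 0.163, 0.0042). PLCL2 had -1.02 ± 0.076 in PEO4 and -0.42 ± 0.050 in PEO1, and KHDC1L had -0.83 ± 0.104 in PEO4 and -0.14 ± 0.099 in PEO1.

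KCNF1, a potassium channel subunit, NPY1R and NPY5R, neuropeptide Y receptors, and CISH, an inhibitor of cytokine receptor signalling, had no called decrease in PEO4. The differences from E2 were -0.06 ± 0.078 in PEO4 and -1.13 ± 0.057 in PEO1 for KCNF1, and -0.02 ± 0.077 in PEO4 and -0.86 ± 0.082 in PEO1 for NPY1R. In PEO4 the NPY1R arrays overlapped fully, at 5.60 to 5.78 with ICI+E2, 5.57 to 5.87 with E2 and 5.67 to 5.76 with vehicle, so that E2 did not lie apart from vehicle there. IL6, a cytokine, had -0.23 ± 0.078 in PEO4 (adjusted p = 0.156) and 0.58 ± 0.085 in PEO1, and the kinase gene SIK1 had -0.22 ± 0.061 in PEO4 and 0.35 ± 0.052 in PEO1.

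**Figure D5:**
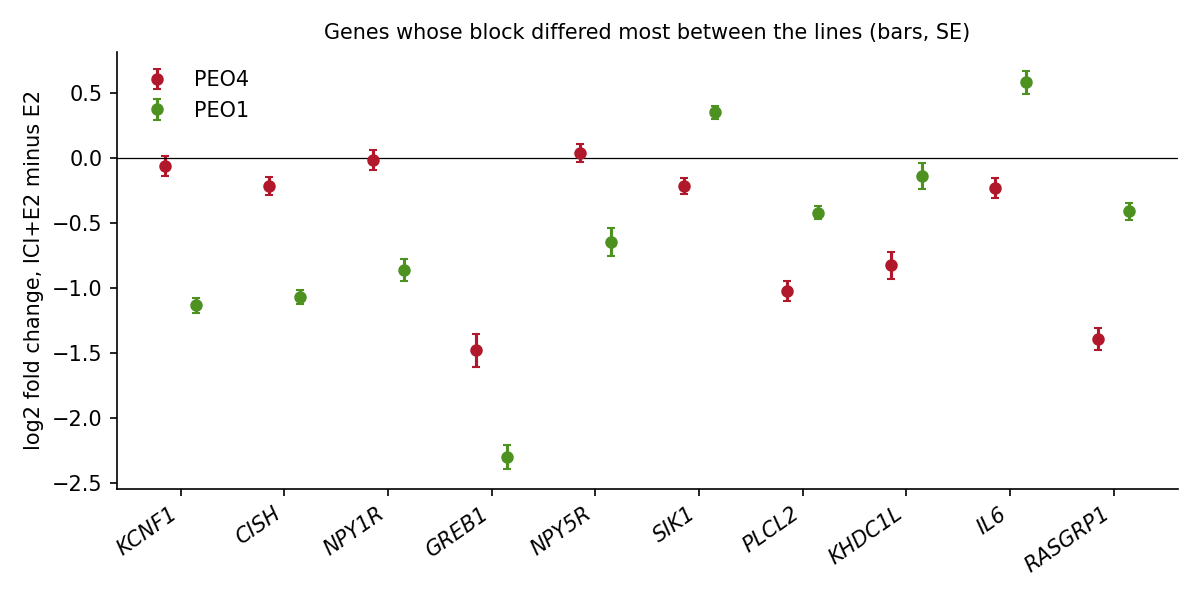
Log2 difference between ICI+E2 and E2 (y axis) in PEO4 (red, left of each pair) and PEO1 (green) for the 10 genes named for the largest differences between the lines, with standard errors as bars, 4 arrays per group. KCNF1, NPY1R and NPY5R lie near 0 in PEO4 and below -0.6 in PEO1, and RASGRP1 and PLCL2 are lower in PEO4.

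Promoters were searched for the palindromic estrogen response element, the half-sites GGTCA and TGACC with any 3 letters between them, on both strands, allowing 1 mismatched letter, in RefSeq sequence of build GRCh38.p14 from 250 bases before to 50 after each gene's start. Of the 165 genes called back, 120 had a promoter in the table, and 0 of the 120 held it, against 287 of 35116 promoters in all (0.817%). A missing match says only that these letters are not in this window.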

How the data were processed

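RNA from 56 arrays was measured on a human Affymetrix array, and the log2 values that the authors deposited came from RMA, per the submitters' processing notes, which name no version. Of 22277 probe sets, 62 were controls, 19064 had 1 gene symbol in the platform annotation, 1043 had several and 2108 had none. Only probe sets with 1 symbol were tested, and for 4310 genes with more than 1 the probe set of highest mean was kept, which left 11963 genes. Groups came from array titles. The 28 PEO4 arrays, 7 groups of 4, were fitted together with limma 3.58.1 in R 4.3.3 (21 residual degrees of freedom, median SE 0.071), and all adjusted p-values are from limma with Benjamini-Hochberg adjustment over all genes, threshold 0.05. The difference between lines was fitted over all 56 arrays. The fit and the intervals were tested on simulated data. No depth applies to arrays, and 4 arrays per group limit the precision. Genes were named by rules on size, on percent reversed and on membership of lists. Members, rules and lists were chosen with earlier results of these data known. Alternatives tried were a variance trend with robust options, a filter leaving out the dimmest 40% of genes, all probe sets, quantile normalization, a replicate block, array weights, only the compared groups, leaving out 2 arrays of poorer RNA, and leaving out each array. Replicate numbers did not pair the arrays: over 12 pairs of same-numbered arrays the correlation of deviations ran from -0.163 to 0.19.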

Additional observations from a re-analysis of the deposited data

Results flagged for a closer look

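Among 174 groups of 4 arrays checked, 13 had an array set apart from the other 3 by Dixon's criterion, where chance alone gives about 1 in 20. With ICI+E2 these were the lowest arrays of PDP1 (8.97), KLF5 (11.62), OLFML3 (7.15) and PLCL2 (7.10) and the highest of BCAR3 (10.81). With E2 they were the lowest of RASGRP1 (9.86), EPHA4 (7.07), GFRA2 (9.10) and ZNF124 (7.97) and the highest of PCDH9 (7.61). With vehicle they were the lowest of PDP1 (8.75), BCAR3 (10.42) and IGFBP3 (9.87).

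The ICI+E2 minus E2 difference of 19 named genes differed between the lines in limma's test of that difference. PEO4 minus PEO1 was 1.07 for KCNF1, 0.85 for CISH, 0.84 for NPY1R, 0.82 for GREB1, 0.69 for NPY5R, 0.67 for DKK1, 0.58 for EPHA4, 0.55 for DCAF16 and 0.42 for CA12. It was -0.98 for RASGRP1, -0.81 for IL6, -0.69 for KHDC1L, -0.60 for PLCL2, -0.57 for SIK1, -0.57 for CASQ2, -0.50 for F13A1, -0.43 for OLFML3, -0.36 for SPRY1 and -0.34 for SOX9.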

How the results depend on the processing

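The median percent reversed stayed between 76.7 and 81.3 over the 8 alternatives that kept every compared array or left out the 2 arrays of poorer RNA, and between 77.2 and 83.7 when each array was left out in turn. Over the PEO1-chosen genes the ratio of the medians was 79.5 to 86.3 and, by array left out, 83.0 to 92.8. Counts of calls moved more. With array weights, which raised every count, there were 614 genes between ICI+E2 and E2, 512 between E2 and vehicle, 149 between ICI+E2 and vehicle, 1743 between ICI+E2 and ICI, 779 for the change in the estradiol effect, 1383 against 4OHT+E2, 129 between lines and 312 called back. Without the 2 arrays of poorer RNA these were 407, 400, 10, 0, 139, 1031, 84 and 241. The count between ICI+E2 and vehicle, 1 as reported, was 5 with the variance trend, 6 without dim genes, 4 after quantile normalization and 2 with the replicate block. RASGRP1 was called in each of these, and the 10 genes without the poorer arrays added ABCA1, CCN2, GEM, INAVA, KAZN, KLHL21, MFHAS1, MYBL1 and ZSCAN31. The replicate block otherwise gave 252 genes between ICI+E2 and E2, 234 of them among the 249. Leaving out each array of the groups compared gave 155 to 219 genes between ICI+E2 and E2, 185 to 206 for E2, 0 to 4 against vehicle, 0 to 459 against ICI, 87 to 322 for the change in the estradiol effect, 343 to 586 against 4OHT+E2, 34 to 48 between lines and 106 to 143 called back. The count against vehicle was 0 without ICI+E2 replicate 2 or 4 or vehicle replicate 2 or 3, and 10 without ICI replicate 1, which is in neither group. Of 71 named genes called between ICI+E2 and E2, 48 kept the call under the 8 alternatives and on leaving out each of 20 arrays, 23 lost it under at least 1 and 0 changed direction. GOLIM4, DUSP4, DUSP5, CYP1B1, KLF7 and RAPGEF5, among others, were each lost on leaving out 5 or more single arrays.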

Other observations

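EZR, DCBLD2 and SEMA3C were called higher with ICI+E2 than with E2, and their estradiol decrease was not called. The membrane-cytoskeleton linker EZR was higher by 0.56 ± 0.101 (limma adjusted p = 0.00144), with 12.30, 12.44, 12.35 and 12.32 with ICI+E2, 11.92, 11.84, 11.70 and 11.72 with E2 and 12.19, 12.03, 12.03 and 12.08 with vehicle, so that all ICI+E2 arrays exceeded both other groups. The receptor-like gene DCBLD2 was higher by 0.50 ± 0.094 (0.00204) and the secreted semaphorin SEMA3C by 0.45 ± 0.077 (0.000707). Against vehicle EZR stood at 0.27 ± 0.101 (0.493), DCBLD2 at 0.26 ± 0.094 (0.468) and SEMA3C at 0.25 ± 0.077 (0.34), none of them called.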
